A study of Mus musculus with 47 samples.

Results

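The 9 genes described here are the immediate early genes Fos, Fosb, Jun, Junb, Egr1 and Ier2 and the nuclear receptor genes Nr4a1, Nr4a2 and Nr4a3. They were chosen by symbol, 9 of the 24391 genes in each count table, and all 9 symbols were found in both tables. Their transcripts were counted in brown fat, white fat and gastrocnemius muscle of C57Bl6 mice. In 3P10 mice, tumours of HT1080, a human fibrosarcoma cell line, were treated with 3P10, which binds GFRAL, the brainstem receptor of GDF15. In IgG1 mice the same tumours were treated with IgG1 as control antibody. NTB mice carried no tumour; no antibody is listed for them, so tumour and control antibody come together when IgG1 is set against NTB. Both antibodies were dosed at 3 mg/kg each week from day 0, and tissues were taken on day 21. Brown fat gave 6 3P10, 5 IgG1 and 6 NTB libraries, and white fat and muscle gave 5 libraries per group. The labels do not state how mice carrying human cells were made to accept them, nor the age of the mice.

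Immediate early genes are transcribed soon after a stimulus, without new protein synthesis, and their short-lived transcripts decay quickly. Fos and Fosb proteins pair with Jun or Junb proteins to form the AP-1 transcription factor, Egr1 is a zinc finger transcription factor, and Ier2 is a nuclear protein of the same early response. Nr4a1, Nr4a2 and Nr4a3 encode orphan nuclear receptors that are switched on by cyclic AMP and calcium, in fat by beta-adrenergic stimulation and in muscle also by exercise.

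The promoters of the 4 members whose transcripts passed the test in any tissue (Jun, Junb, Nr4a1 and Nr4a2) and of Nr4a3 are shown, each as the 250 bases before the RefSeq start on build GRCm38.p6, 5′ to 3′ on the strand of the gene. RefSeq promoters were matched by symbol for 7 of the 9 members, and not for Egr1 and Ier2. Capitals mark TGACG on either strand, the core of the cyclic AMP response element, except in Jun, where they mark TGACATCA, an AP-1-like site. Nr4a1 lies at chr15:101266596-101266845 on the plus strand, Nr4a2 at chr2:57124004-57124253 on the minus strand and Nr4a3 at chr4:48045055-48045304 on the plus strand. Jun lies at chr4:95052223-95052472 and Junb at chr8:84978749-84978998, both on the minus strand.
Nr4a1: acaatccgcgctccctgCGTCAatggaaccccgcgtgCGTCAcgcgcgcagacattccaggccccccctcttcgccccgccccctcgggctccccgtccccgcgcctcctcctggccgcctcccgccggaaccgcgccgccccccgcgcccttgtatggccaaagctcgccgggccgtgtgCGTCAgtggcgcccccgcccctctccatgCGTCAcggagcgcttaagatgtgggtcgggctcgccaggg
Nr4a2: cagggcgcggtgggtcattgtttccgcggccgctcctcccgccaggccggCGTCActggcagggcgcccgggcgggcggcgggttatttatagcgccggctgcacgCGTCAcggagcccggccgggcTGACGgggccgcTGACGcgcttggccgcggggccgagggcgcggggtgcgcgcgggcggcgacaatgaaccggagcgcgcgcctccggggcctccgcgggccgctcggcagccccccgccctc
Nr4a3: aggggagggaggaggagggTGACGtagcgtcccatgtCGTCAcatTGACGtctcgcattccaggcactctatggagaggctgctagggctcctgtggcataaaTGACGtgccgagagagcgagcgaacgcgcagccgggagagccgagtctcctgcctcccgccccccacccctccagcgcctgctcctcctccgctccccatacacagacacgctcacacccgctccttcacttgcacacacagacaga
Jun: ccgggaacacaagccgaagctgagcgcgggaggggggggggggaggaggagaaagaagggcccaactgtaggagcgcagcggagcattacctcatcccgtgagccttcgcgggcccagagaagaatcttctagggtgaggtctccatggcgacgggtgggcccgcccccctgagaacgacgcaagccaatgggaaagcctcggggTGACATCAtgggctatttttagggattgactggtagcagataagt
Junb: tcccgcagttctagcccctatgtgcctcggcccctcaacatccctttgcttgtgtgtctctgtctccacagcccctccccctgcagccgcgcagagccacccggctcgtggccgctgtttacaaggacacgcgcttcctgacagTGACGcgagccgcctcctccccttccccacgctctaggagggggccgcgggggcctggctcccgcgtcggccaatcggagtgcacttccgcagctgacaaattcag
Each of the 3 Nr4a windows held 4 matches to TGACG, a number reached by 0.138% of the 32536 mouse promoter windows of this length. Fos held 2 matches, which 3.92% of windows reached, Fosb and Junb held 1 each, which 17.9% reached, and Jun held none. TGACATCA was found in Jun alone of the 7, 45 to 38 bases before its start, and in 2.84% of all windows. The full palindrome TGACGTCA, the AP-1 site TGANTCA, the Nr4a site AAAGGTCA and the CArG box bound by SRF were found in 0 of the 7 windows and in 1.56%, 6.73%, 1.35% and 1.48% of all windows. The Egr1 site GCGNGGGCG was found in Nr4a1, Nr4a2 and Fosb and in 4.74% of all windows. Both strands were searched, TGACG also lies inside TGACGTCA, and a match describes letters only. Sites outside these 250 bases, and any in the promoters of Egr1 and Ier2, were not searched.

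Library totals were 0.799 to 2.46 M counts in brown fat (median 1.16 M), 18.6 to 80.7 M in white fat (median 25.97 M) and 24.8 to 33.5 M in muscle (median 28.3 M). Levels are given as CPM, counts per M of the library total after TMM scaling within a tissue. A gene with 0 counts could lie at up to 3 counts, or 1.25 to 3.68 CPM in brown fat. These floors cover counting error only. In brown fat the library numbers run through 1 group after another, so order and group cannot be told apart there. In muscle, the libraries numbered 14 and above were 3P10 replicate 2, IgG1 replicates 2 and 4 and NTB replicate 3. Their TMM factors were 0.866, 0.810, 0.974 and 0.804, against 0.986 to 1.13 in those numbered 1 to 12. In white fat, keratinocyte markers (4 of 4 with reads) summed to 760 CPM in IgG1 replicate 4 and 31.2 CPM in IgG1 replicate 2, against at most 4.37 CPM in the other libraries. Each tissue expressed its defining markers, with summed brown adipocyte markers of 7334 to 11733 CPM in brown fat, adipocyte markers of 23831 to 33684 CPM in white fat and skeletal muscle markers of 194620 to 365050 CPM in muscle. In whole tissue, fewer cells of a type and less RNA per cell cannot be told apart. The labels state only that libraries are separate samples, so p-values measure the spread between these samples.

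Nr4a1 was lower in every white fat library than in any muscle library, and Fos spanned nearly the same range in both tissues. CPM are not scaled by transcript length and the brown fat kit differed, so only levels of 1 gene between white fat and muscle are set side by side. Nr4a1 lay at 5.53 to 100.5 CPM in white fat and at 116 to 266 CPM in muscle. White fat libraries had Fos at 1.97 to 10.5 CPM, and muscle libraries at 2.01 to 13.1 CPM. The medians of Ier2, Egr1, Fosb, Junb and Nr4a2 were higher in white fat, with overlapping ranges. In white fat, Ier2 lay at 16.9 to 38.3 CPM, against 7.73 to 21.1 CPM in muscle. Egr1 lay at 6.07 to 53.6 CPM in white fat, against 3.75 to 9.88 CPM in muscle, and Fosb at 0.362 to 3.31 CPM in white fat, against 0.153 to 0.9499 CPM in muscle. Junb had a median of 29.5 CPM in white fat and 18.2 CPM in muscle, and Nr4a2 of 1.91 CPM and 1.07 CPM. The medians of Jun and Nr4a3 were higher in muscle, again with overlapping ranges, and these levels carry no test. Fos and Fosb were near the limit of detection in brown fat, with 17 and 4 reads over all 17 libraries. All 9 genes passed the low-count filter in white fat and muscle. In brown fat 5 passed (Jun, Junb, Egr1, Nr4a1 and Nr4a2), and Fos, Fosb, Ier2 and Nr4a3 did not.

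In muscle, Jun and Junb were 2.04-fold and 1.96-fold higher in IgG1 mice than in NTB mice, and the other 7 members did not pass the test. Jun was at 186, 268, 197, 265 and 163 CPM in the 5 IgG1 libraries, against 75.9, 92.0, 191, 81.1 and 90.02 CPM in NTB. All IgG1 libraries lay above 4 of the 5 NTB libraries, and the groups overlapped through NTB replicate 3. The log2 fold change was 1.03 (SE 0.24, adjusted p = 0.0207 by edgeR's quasi-likelihood test). Junb was at 34.2, 23.6, 34.4, 18.2 and 17.8 CPM in IgG1, against 12.3, 10.2, 18.4, 14.5 and 10.1 CPM in NTB, with a fold change of 0.97 on the log2 scale (SE 0.23, adjusted p = 0.0239 by edgeR). The 2 calls stand beside 2.68% of the 13283 genes tested that were called higher in this comparison, 2.92% called lower and 5.6% called in either direction. With a term for library numbers 14 and above the adjusted p was 3.86e-04 for Jun and 0.00703 for Junb, and among libraries 1 to 12 alone it was 0.00217 and 0.00775. Fitted on IgG1 and NTB alone, the adjusted p was 0.0637 for Jun and 0.0556 for Junb, and Jun held its call in 9 of 15 fits that each left out 1 library and Junb in 11, with log2 fold changes of 0.93 to 1.33 and 0.84 to 1.11. The Jun call was lost without IgG1 replicate 2 or 4 or NTB replicate 1, 2, 4 or 5 (adjusted p of up to 0.0648 by edgeR), and the Junb call without IgG1 replicate 3 or NTB replicate 1, 2 or 5 (adjusted p of up to 0.0694 by edgeR).

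**Figure D1:**
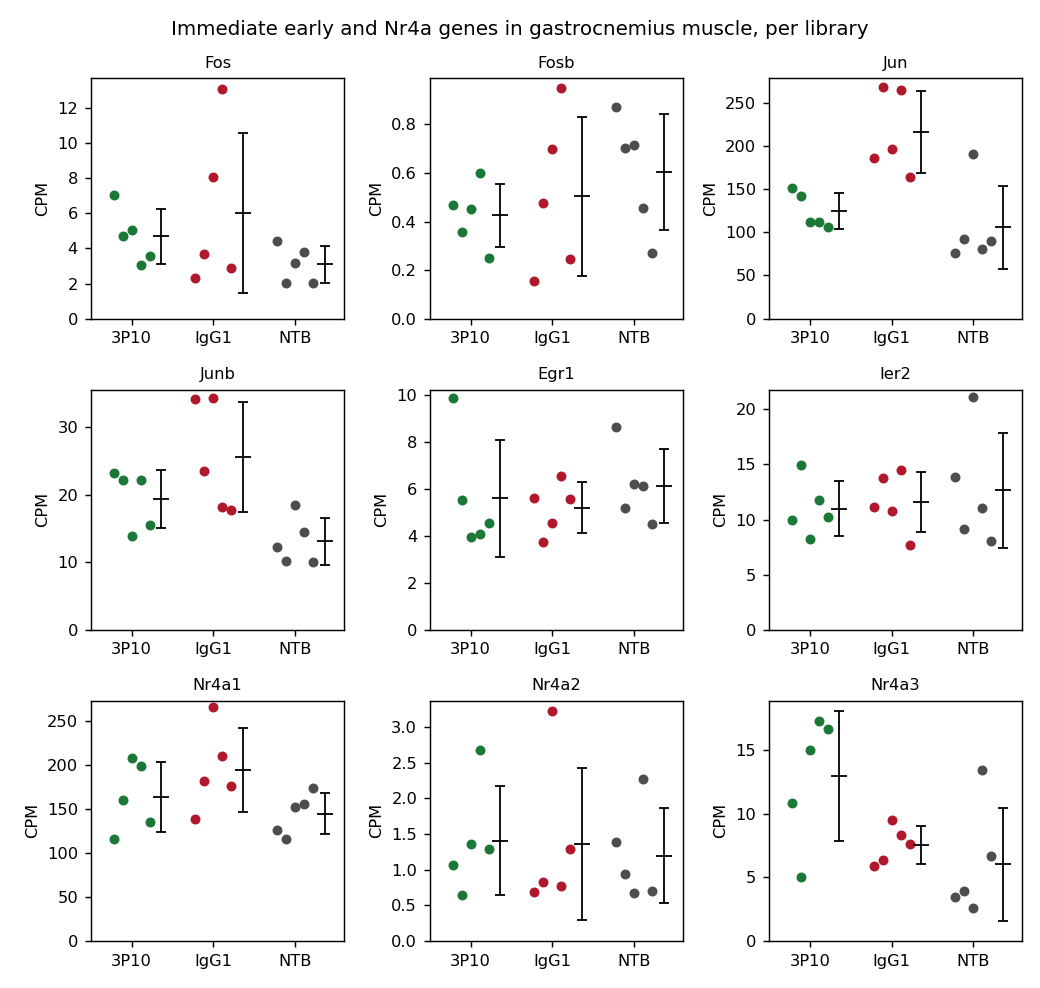
CPM of each gene in every muscle library (points), with mean and SD beside them, for 3P10, IgG1 and NTB, on linear axes from 0. Jun lay at 163 to 268 CPM in IgG1 libraries, and in NTB only replicate 3, at 191 CPM, reached that range.

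The members other than Jun and Junb gave no call in the same muscle, the Fos partners of Jun included. Fos was at 2.34, 3.67, 8.08, 13.1 and 2.90 CPM in IgG1, against 4.45, 2.05, 3.15, 3.81 and 2.01 CPM in NTB. Its high values came from 2 IgG1 libraries, replicates 3 and 4, and the groups overlapped (log2 fold change 0.96, SE 0.42, adjusted p = 0.203 by edgeR). Nr4a1 averaged 195 ± 47.4 CPM in IgG1 and 145 ± 23.2 CPM in NTB (SD, n = 5 each; log2 fold change 0.42, SE 0.19, adjusted p = 0.227 by edgeR). Egr1, Ier2 and Fosb gave log2 fold changes of -0.23, -0.13 and -0.25, and Nr4a2 and Nr4a3 gave 0.18 and 0.33, with adjusted p of 0.660 to 0.881 by edgeR.

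The mean Jun level of 3P10 muscle lay between those of the other groups, at 125 ± 20.8 CPM in 3P10, 216 ± 47.6 CPM in IgG1 and 106 ± 47.9 CPM in NTB (SD, n = 5 each). Jun was at 152, 143, 112.2, 112.3 and 106 CPM in 3P10, all below the lowest IgG1 library at 163 CPM. The groups did not overlap, which held for 1 of the 9 members and for 2.44% of the 13283 genes tested, and 0.211% of genes tested were called in this comparison, 0.0903% higher and 0.12% lower. The log2 fold change of 3P10 against IgG1 was -0.79 (SE 0.24, adjusted p = 0.197 by edgeR), which did not pass. It passed without NTB replicate 3 (-0.76, adjusted p = 0.0462 by edgeR). With the term for library numbers it also passed (adjusted p = 0.0203), and 668 genes were then called in place of 28. Junb was at 23.2, 22.2, 13.9, 22.2 and 15.6 CPM in 3P10, within the range of IgG1 (log2 fold change -0.40, SE 0.23, adjusted p = 0.574 by edgeR). Nr4a3 was at 10.9, 5.06, 15.01, 17.3 and 16.7 CPM in 3P10, against 5.90, 6.38, 9.52, 8.33 and 7.61 CPM in IgG1 and 3.45, 3.89, 2.58, 13.5 and 6.69 CPM in NTB. Its log2 fold change was 0.78 against IgG1 (adjusted p = 0.499) and 1.11 against NTB (adjusted p = 0.865, both by edgeR). No gene passed in 3P10 against NTB in muscle (0% called, 563 of 13283 at an unadjusted p under 0.05, 15 called by DESeq2), and of the members Junb and Nr4a3 had an unadjusted p under 0.05. IgG1 against NTB and 3P10 against IgG1 share the IgG1 libraries, in every tissue.

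In muscle, of 21 tested genes in a list of EGR-family and growth-factor early genes, 7 rose in IgG1 against NTB, 0 fell and 14 did not pass. The list holds Egr2, Egr3 and Egr4 beside genes of other families, and the 7 that rose were of other families. The list's median log2 fold change was 0.62, beside 0.01 over all genes tested. The list was chosen with earlier results of these data known, so these medians are not a test. Mcl1, which blocks cell death, averaged 265 ± 30.9 CPM in IgG1 and 166 ± 16.1 CPM in NTB (adjusted p = 0.00575 by edgeR). Klf6, a zinc finger factor, averaged 52.7 ± 15.5 CPM in IgG1 and 25.7 ± 4.62 CPM in NTB (adjusted p = 0.00740 by edgeR). Zfp36, whose protein binds and destabilises AU-rich transcripts, rose by 1.14 (SE 0.27), and Btg2, an antiproliferative gene, by 0.87 (SE 0.22) on the log2 scale. The other 3 that rose, outside the naming rule and named because they complete the count, were Myc, Cyr61 and Zfp36l1. Fits that left out 1 library called 2 to 8 of these genes. With the term for library numbers 11 were called, with libraries 1 to 12 alone 5, and with IgG1 and NTB fitted alone 2. Mcl1 and Klf6 were among the genes called in each of these fits, while Zfp36 kept its call in 10 and Btg2 in 9 of the 15 fits that left out 1 library. In 3P10 against IgG1, Klf6 fell by 1.08 (SE 0.20, adjusted p = 0.0379 by edgeR), to 24.8 ± 5.22 CPM in 3P10 (SD, n = 5), and the other 20 did not pass. That Klf6 call was kept in 3 of 15 fits that left out 1 library (adjusted p of up to 0.108 by edgeR).

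In muscle, of 5 other AP-1 and ATF genes and 12 MAP kinase phosphatase and feedback genes tested, 0 passed in any muscle comparison. Of 13 SRF, TCF and CREB factor genes, 1 fell in IgG1 against NTB, Elk3, which averaged 11.1 ± 0.767 CPM in IgG1 and 16.3 ± 2.51 CPM in NTB (adjusted p = 0.0125 by edgeR). Of 5 EGR co-repressor and NR4A partner genes, 2 fell, Nab2, which represses Egr1 activity, by 0.57 (SE 0.15) and Rxrg, a nuclear receptor partner, by 0.62 (SE 0.14). The Nab2 call was kept in 4 of 15 fits that left out 1 library, and the Rxrg call was lost without IgG1 replicate 3 or 4 or NTB replicate 4, so that 0 to 3 of the 5 were called. Dio2, which makes active thyroid hormone, was the 1 of 8 cyclic AMP response genes to pass, at 1.41 ± 0.794 CPM in IgG1 and 5.21 ± 0.681 CPM in NTB (adjusted p = 0.00294 by edgeR). Dio2 rose in 3P10 against IgG1, by 1.58 (SE 0.30, adjusted p = 0.0428 by edgeR), to 4.19 ± 1.33 CPM in 3P10, a call kept in 4 of 15 fits that left out 1 library and in 5 of 8 other settings. The Dio2 call in IgG1 against NTB held in all 15 and all 8. Of 10 glycolysis and glycogen genes linked to NR4A in muscle and 9 heat shock genes, 0 passed. Summed fibroblast markers lay at 411 to 534 CPM in 3P10, 402 to 555 CPM in IgG1 and 643 to 770 CPM in NTB, with 2 of 5 markers called in IgG1 against NTB, and their part in these results was not tested.

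In white fat no member passed in any comparison, although 8.64% of 14402 genes were called in IgG1 against NTB (4.09% higher, 4.55% lower). In 3P10 against IgG1 it was 7.42% (3.96% higher, 3.46% lower), and in 3P10 against NTB 0% (542 genes at an unadjusted p under 0.05, 19 called by DESeq2). The groups overlapped for every member in each comparison, while 8.85% of genes tested did not overlap in IgG1 against NTB, 5.65% in 3P10 against IgG1 and 0.847% in 3P10 against NTB. DESeq2 also called 0 members in all 3 comparisons, and unadjusted edgeR p-values under 0.05 were found for 2 members in IgG1 against NTB, 3 in 3P10 against IgG1 and 1 in 3P10 against NTB. Jun was at 78.2, 59.8, 100.01, 53.2 and 44.4 CPM in IgG1, against 82.8, 103, 106, 97.2 and 81.1 CPM in NTB. In IgG1, 4 values lay below every NTB value, and replicate 3 lay among the NTB values (log2 fold change -0.49, SE 0.19, adjusted p = 0.103 by edgeR). Without IgG1 replicate 3 the log2 fold change was -0.65 and the adjusted p 0.0194. Egr1 was at 13.3, 6.07, 15.7, 11.6 and 19.4 CPM in IgG1 and 21.7, 19.2, 22.1, 19.3 and 17.3 CPM in NTB (log2 fold change -0.59, SE 0.34, adjusted p = 0.255 by edgeR). Summed fibroblast markers lay at 1290 to 2534 CPM in 3P10, 553 to 1487 CPM in IgG1 and 2191 to 3343 CPM in NTB, with 3 of 5 called in IgG1 against NTB, and their part in white fat results was not tested. In 3P10, Junb reached 91.0 CPM in replicate 2 against 25.8 to 42.3 CPM in the other 4, and Egr1 reached 53.6 CPM in replicate 1 against 14.7 to 21.8 CPM.

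**Figure D2:**
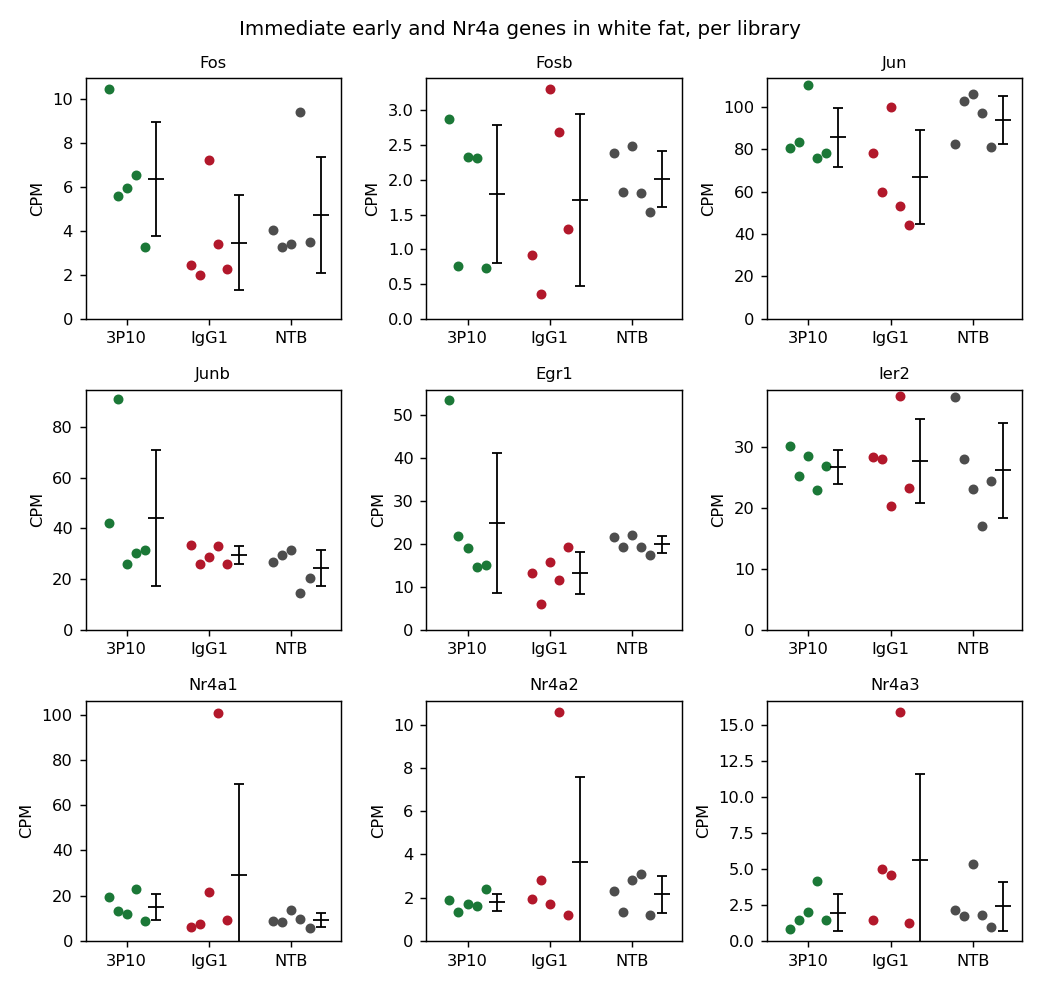
CPM of each gene in every white fat library (points), with mean and SD beside them, for 3P10, IgG1 and NTB, on linear axes from 0. IgG1 replicate 4 is the high point for Nr4a1 (100.5 CPM), Nr4a2 (10.6 CPM) and Nr4a3 (15.8 CPM).

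The 3 Nr4a genes were highest in 1 white fat library. This was IgG1 replicate 4, the library with the keratinocyte markers at 760 CPM. It was also the deepest white fat library, at 80.7 M counts against 18.6 to 34.4 M in the others. It held Nr4a1 at 100.5 CPM, against 6.06, 7.56, 21.8 and 9.39 CPM in the other IgG1 libraries and 8.71, 8.54, 13.7, 9.78 and 5.53 CPM in NTB. It also held Nr4a2 at 10.6 CPM, against 1.21 to 2.82 CPM in the other IgG1 libraries, and Nr4a3 at 15.8 CPM, against 1.25 to 4.99 CPM. Its brown adipocyte markers summed to 4615 CPM, beside 4367 CPM in IgG1 replicate 2, where Nr4a1 was at 7.56 CPM. Nr4a1 gave a log2 fold change of 1.66 in IgG1 against NTB with this library (SE 0.64, adjusted p = 0.107) and 0.28 without it (adjusted p = 0.693, both by edgeR), and it passed without IgG1 replicate 1, at 1.92 (adjusted p = 0.0475 by edgeR). In 3P10 against IgG1 the Nr4a1 value was -0.96 with it and 0.42 without it. The part of the other cell types' RNA and of library depth in these values was not tested.

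The Jun difference was not the same in white fat and muscle. When both tissues were fitted together in edgeR, the log2 fold change of IgG1 against NTB in white fat minus that in muscle was -1.48 for Jun (SE 0.31, adjusted p = 0.0205), 1 of the 9 members and beside 1.11% of 14898 genes tested. It held in all 5 other settings (adjusted p 0.00139 to 0.0401) and in 28 of 30 fits that left out 1 library. Without white fat IgG1 replicate 2 or 4 the adjusted p was 0.0506 and 0.0504. Of 22 genes of the EGR-family and growth-factor list, 4 also passed with lower values in white fat, Zfp36l1 (-1.22, SE 0.25), Btg2 (-1.37, SE 0.29), Mcl1 (-0.72, SE 0.17) and Klf6 (-1.34, SE 0.32). Of 30 fits that left out 1 library, Zfp36l1 kept its call in 30, Btg2 in 28, Klf6 in 18 and Mcl1 in 17. In 3P10 against IgG1 the Jun difference between tissues was 1.11 (SE 0.31, adjusted p = 0.0955 by edgeR, 0.208% of genes called), which passed with DESeq2.

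**Figure D3:**
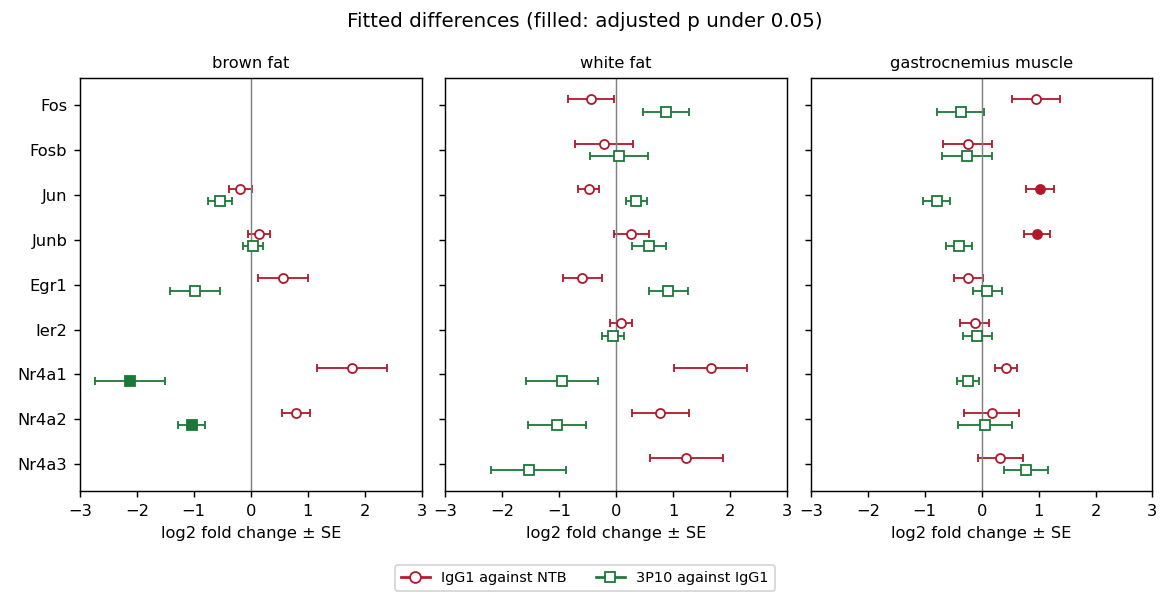
Log2 fold change with SE for each tested gene, IgG1 against NTB (circles) and 3P10 against IgG1 (squares), in brown fat, white fat and muscle. Filled symbols passed at an adjusted p under 0.05, namely Jun and Junb in muscle and Nr4a1 and Nr4a2 in brown fat.

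In brown fat Nr4a1 and Nr4a2 were lower in 3P10 mice than in IgG1 mice. Nr4a2 ran from 34.8 through a median of 35.98 to 46.1 CPM in the 6 3P10 libraries, against 112.5, 32.1, 67.3, 82.2 and 95.7 CPM in IgG1 and 25.8 through 42.2 to 69.5 CPM in the 6 NTB libraries. In IgG1, 4 of 5 libraries lay above every 3P10 library, and replicate 2 lay below them. The log2 fold change of 3P10 against IgG1 was -1.04 (SE 0.24, adjusted p = 0.00755 by edgeR), and it passed in all 17 fits that left out 1 library, at -1.24 to -0.88. In IgG1 against NTB it was 0.80 (SE 0.24, adjusted p = 0.0720 by edgeR), which DESeq2 and the fit without a low-count filter called.

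Nr4a1 in brown fat rested on 1 library. It ran from 6.26 through 9.54 to 12.3 CPM in 3P10, against 149, 10.996, 7.98, 6.33 and 29.9 CPM in IgG1 and 5.85 through 8.97 to 24.5 CPM in NTB. The log2 fold change of 3P10 against IgG1 was -2.12 (SE 0.62, adjusted p = 0.0280 by edgeR), and -0.69 (adjusted p = 0.311) without IgG1 replicate 1. The call was also lost without 3P10 replicate 3 (-1.98, adjusted p = 0.0690) or 3P10 replicate 6 (-2.07, adjusted p = 0.0526, both by edgeR). That library also held the highest Egr1, at 69.3 CPM, and the highest Nr4a2, at 112.5 CPM. The 2 Nr4a calls stand beside 11.6% of 8711 genes called in this comparison, with 5.58% called lower and 6.05% higher. Nr4a3 had 84 reads over 17 libraries and did not pass the filter. It ran from 0.895 through 1.76 to 4.15 CPM in 3P10, against 18.2, 7.33, 9.12, 1.81 and 15.7 CPM in IgG1 and 0 through 1.75 to 3.04 CPM in NTB, so that 4 of 5 IgG1 libraries lay above all others. In the fit without a filter its log2 fold change was -2.18 in 3P10 against IgG1 (adjusted p = 0.00426) and 2.57 in IgG1 against NTB (adjusted p = 0.00762, both by edgeR), where NTB had 0 counts in 2 of 6 libraries. Summed brown adipocyte markers, Dio2 among them, lay at 8770 to 11733 CPM in 3P10, 7783 to 9170 CPM in IgG1 and 7334 to 9602 CPM in NTB. Of these 5 markers, 2 were called in IgG1 against NTB. Endothelial markers lay at 618 to 927, 637 to 1234 and 867 to 1348 CPM in the same order of groups. Skeletal muscle markers lay at 14.1 to 1937, 171 to 1865 and 664 to 2456 CPM. Adipocyte markers lay at 11942 to 17492, 10739 to 16440 and 9554 to 14430 CPM. The part of these cell types in brown fat results was not tested.

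**Figure D4:**
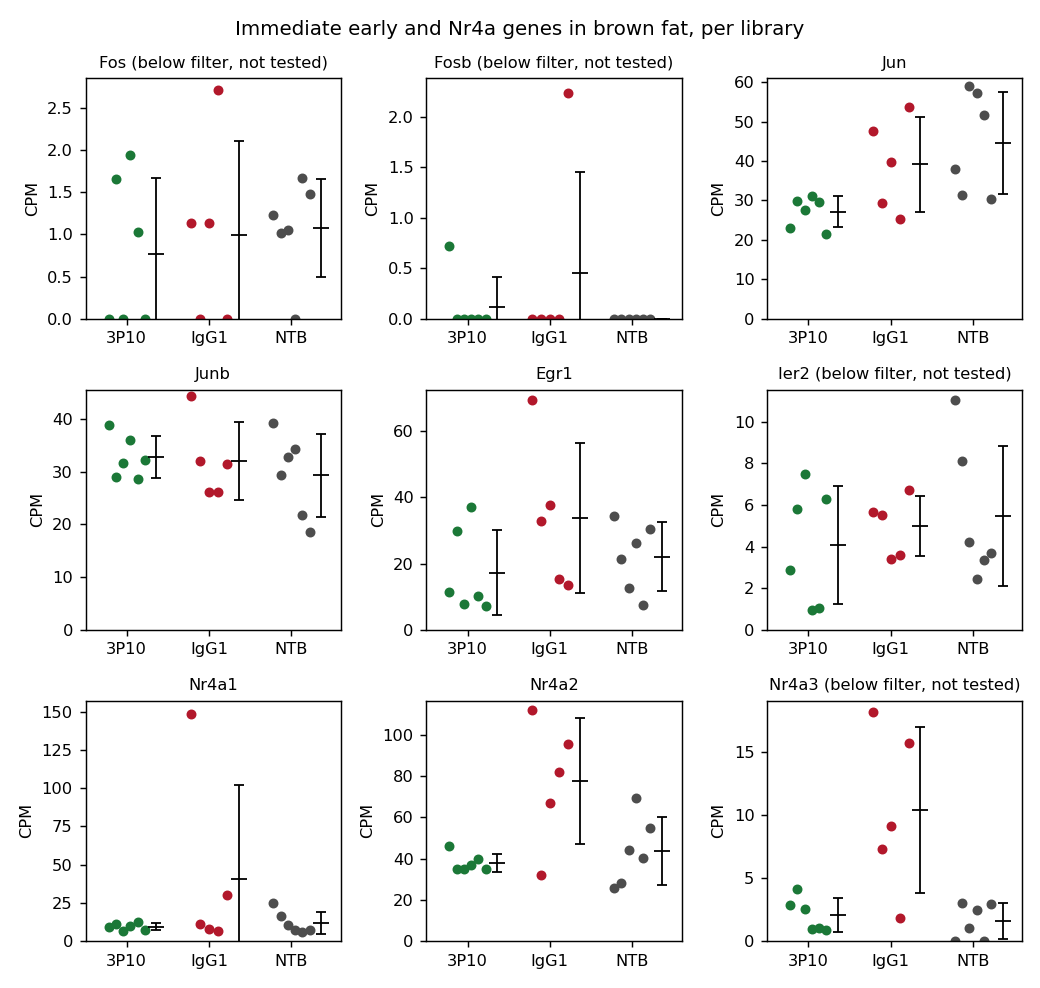
CPM of each gene in every brown fat library (points), with mean and SD beside them, for 3P10, IgG1 and NTB, on linear axes from 0. In IgG1, 4 of 5 libraries lay above every 3P10 library for Nr4a2 (not replicate 2) and for Nr4a3 (not replicate 4). For Nr4a2, NTB replicate 4 (69.5 CPM) lay above IgG1 replicate 3 (67.3 CPM). Nr4a1 was high in IgG1 replicate 1, at 149 CPM. Error bars are cut off where they would pass below 0.

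Jun ran from 21.5 through 28.6 to 31.1 CPM in 3P10 brown fat, against 47.7, 29.3, 39.9, 25.3 and 53.8 CPM in IgG1 and 30.3 through 44.9 to 59.1 CPM in NTB. It was lower in 3P10 than in NTB (log2 fold change -0.72, SE 0.20, adjusted p = 0.0351 by edgeR), the 1 member called there, beside 5.75% of genes called, 2.72% lower and 3.03% higher. The call was lost in 7 of 17 fits that left out 1 library, namely 3P10 replicate 1, 3 or 6 or NTB replicate 1, 3, 4 or 5, with adjusted p of up to 0.101 by edgeR, and values over the 17 fits were -0.82 to -0.63. Against IgG1 the value was -0.54 (SE 0.21, adjusted p = 0.0984 by edgeR), and it passed without IgG1 replicate 4 (-0.67, adjusted p = 0.0431 by edgeR). Egr1 ran from 7.16 through 10.9 to 36.9 CPM in 3P10, against 13.5 through 32.99 to 69.3 CPM in IgG1 (log2 fold change -0.98, SE 0.45, adjusted p = 0.159 by edgeR). Junb averaged 32.7 ± 4.002 CPM in 3P10, 32.04 ± 7.39 CPM in IgG1 and 29.3 ± 7.89 CPM in NTB (SD). In IgG1 against NTB no member passed (2.97% of genes called, 1.86% higher), with 2 of 5 at an unadjusted p under 0.05.

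Among other early response and cyclic AMP genes in brown fat, 3 of 17 EGR-family and growth-factor genes fell in 3P10 against IgG1 and none rose. Klf6 averaged 149 ± 33.4 CPM in 3P10 (n = 6) and 273 ± 24.2 CPM in IgG1 (n = 5; adjusted p = 3.11e-04 by edgeR), Btg2 fell by 0.60 (SE 0.16) and Mcl1 by 0.32 (SE 0.09). Over 17 fits that left out 1 library, Klf6 kept its call in 17, Btg2 in 15 (not without IgG1 replicate 1 or 5) and Mcl1 in 13. Dio2, at 433 ± 240.3 CPM in 3P10 and 1578 ± 669 CPM in IgG1 (adjusted p = 0.00410 by edgeR), and Pde4d, a phosphodiesterase of cyclic AMP, were the 2 of 8 cyclic AMP response genes to fall. The fall of Dio2 held in all 17 fits and that of Pde4d in 10. Both rose in IgG1 against NTB, by 1.72 (SE 0.39) and 0.77 (SE 0.17), and both calls were lost without IgG1 replicate 3 or 5 (adjusted p of up to 0.0988 and 0.101 by edgeR). Klf6 and Btg2 also fell in 3P10 against NTB, by 0.45 (SE 0.13) and 0.53 (SE 0.15), with calls kept in 8 and 9 of 17 fits that left out 1 library. Of 9 glycolysis genes Ldha fell by 0.40 (SE 0.08), and of 7 heat shock genes Hspe1 and Hspd1, mitochondrial chaperones, rose by 0.87 (SE 0.15) and 0.29 (SE 0.09) in 3P10 against IgG1, where Ldha and Hspe1 kept their calls in 17 and Hspd1 in 9 of 17 such fits. AP-1 and ATF genes (3 tested), MAP kinase phosphatases (7), SRF and CREB factors (9) and Nr4a partners (4) gave 0 calls in brown fat.

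In white fat the same list of early genes split. In IgG1 against NTB 2 of 22 rose, Csrnp1 by 1.07 (SE 0.23) and Sik1 by 1.23 (SE 0.30), and 3 fell, among them Ier5l by 1.13 (SE 0.20) and Egr2, the relative of Egr1, to 0.808 ± 0.303 CPM in IgG1 against 2.80 ± 1.38 CPM in NTB (adjusted p = 0.0173 by edgeR). The third that fell, named to complete the count, was Zfp36l1. In 3P10 against IgG1, Egr2 rose by 1.79 (SE 0.40) and Ier5l by 0.9986 (SE 0.20), while Csrnp1 and Arc fell by 0.84 (SE 0.23) and 1.65 (SE 0.44). These counts ran from 3 to 7 and from 0 to 8 genes when 1 library was left out. In IgG1 against NTB, Csrnp1, Egr2 and Ier5l kept their calls in all 15 such fits, and Sik1 lost its call without IgG1 replicate 4 or NTB replicate 1 or 4. Between 3P10 and IgG1, Ier5l was called in 13, Egr2 in 11, Arc in 7 and Csrnp1 in 6 of the 15. Of 5 partner genes Nab2 fell by 0.76 (SE 0.22) and Rxrb rose by 0.44 (SE 0.13) in IgG1 against NTB, and Nab2 rose by 0.84 (SE 0.22) in 3P10 against IgG1. In fits that left out 1 library, Nab2 and Rxrb each kept the call in IgG1 against NTB in 4 of 15, and Nab2 kept that of 3P10 against IgG1 in 7. Sik1 was also the 1 of 8 cyclic AMP genes called, Mkl1 was the 1 of 13 SRF and CREB factors called (up 0.72, SE 0.16, in 3P10 against IgG1), and of 10 glycolysis and glycogen genes Gys1 rose by 0.66 (SE 0.15) in IgG1 against NTB while Gys1 and Fbp2 fell by 0.60 (SE 0.15) and 2.22 (SE 0.63) in 3P10 against IgG1. The Mkl1 call was lost without 3P10 replicate 3 or IgG1 replicate 2 or 4, and the Gys1 call held in all 15 fits in IgG1 against NTB and in 10 in 3P10 against IgG1, where Fbp2 held in 2. Of the other white fat lists, the heat shock genes Hsp90aa1 and Hsph1 fell in IgG1 against NTB and rose in 3P10 against IgG1 (2 of 9 each), with Hsph1 called in 3 of 15 fits that left out 1 library in IgG1 against NTB and the other 3 calls in all 15, and 0 of 7 AP-1 and ATF genes and 0 of 12 MAP kinase phosphatases passed. Among white fat libraries 1 to 12 alone, 0 genes of the lists with calls passed in IgG1 against NTB, beside 84 of 14503 genes tested, and those of 3P10 against IgG1 were also lost. This subset leaves out IgG1 replicates 2 and 4, where keratinocyte markers summed to 31.2 and 760 CPM. It also leaves out 3P10 replicate 2 and NTB replicate 3. The part of the smaller groups and of the libraries left out in these losses was not tested.

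Replicates of 1 group differed widely for several members. The SD of log2 CPM within groups, over a prior count of 2, had a median of 0.49 over the 5 tested members in brown fat, beside 0.28 over all genes tested there. It was 0.66 beside 0.31 in white fat and 0.42 beside 0.34 in muscle. The members' median percentile among all genes tested in muscle was 65.2 over all libraries and 88.8 among libraries 1 to 12 alone. In white fat these percentiles were 84.0 and 82.7. In white fat Nr4a3 and Nr4a1 had SDs of 1.09 and 1.04, at percentiles 96.2 and 95.5 of all genes, while Jun and Ier2 had 0.31 and 0.33, at percentiles 50.0 and 52.6. In brown fat Nr4a1 and Egr1 were at percentiles 99.3 and 98.8. In muscle Nr4a2, Fos and Nr4a3 were at percentiles 94.0, 92.5 and 91.9, while Nr4a1 was at percentile 45.3. Genes with few counts have a wider spread from counting alone, and Fosb and Nr4a2 in muscle had 4 to 31 and 14 to 92 counts per library.

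**Figure D5:**
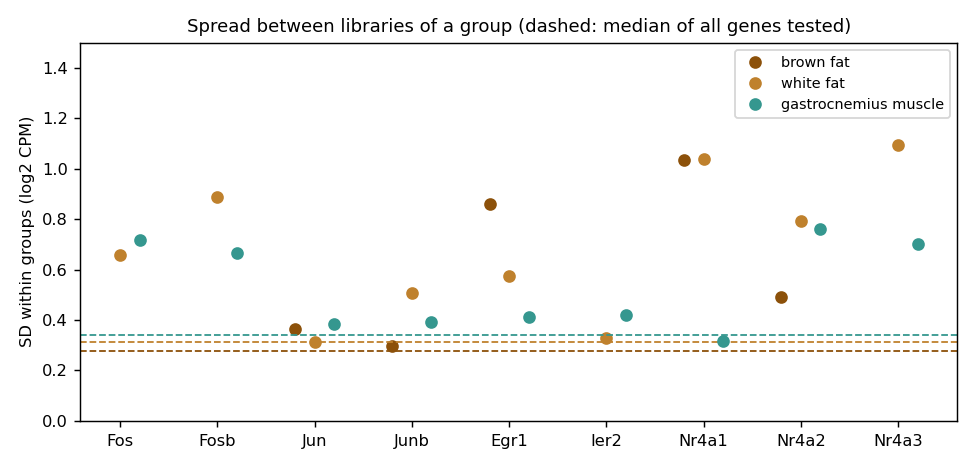
SD of log2 CPM between libraries of the same group for each tested gene in brown fat, white fat and muscle, with the median of all genes tested as dashed lines. Nr4a1 had an SD of 1.04 in white fat and 0.32 in muscle.

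Members did not pass a test of moving together within groups. Across 16 relations of Fos with the other members in white fat and muscle (log2 CPM less the group mean, 15 libraries each, permutation within groups), 0 passed after adjustment. Fosb had the highest values, with r = 0.65 and rho = 0.70 in white fat (permutation p = 0.0148 and 0.0122, adjusted p = 0.139 and 0.162) and r = 0.73 and rho = 0.65 in muscle (permutation p = 0.0174 and 0.0414, adjusted p = 0.139 and 0.221). Without the 2 libraries farthest from the Fos median, r was 0.74 and 0.51. With Nr4a1 in place of Fos, chosen after Fos proved too low to test in brown fat, 0 of 20 relations passed. Nr4a3 in white fat gave r = 0.75 and rho = 0.63 (permutation p = 0.00946 and 0.0481, adjusted p = 0.0946 and 0.240), and r = 0.49 without the 2 libraries farthest from the Nr4a1 median.

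White fat and muscle libraries share 15 library numbers with the same group at each, though the labels do not say that a number is 1 mouse. Across these numbers, 0 of 9 members passed by Pearson's r. Egr1 gave r = 0.76 (permutation p = 0.00866, adjusted p = 0.0779) and rho = 0.76 (permutation p = 0.00430, adjusted p = 0.0387), and without the 2 numbers farthest from the median in white fat r was 0.49 (permutation p = 0.211) and rho 0.63 (permutation p = 0.0858, both unadjusted). Fosb gave r = 0.57 (permutation p = 0.0720, adjusted p = 0.216) and rho = 0.69 (permutation p = 0.0135, adjusted p = 0.0609). Without the 2 numbers farthest from its white fat median, Fosb had r = 0.71 (permutation p = 6.6e-04) and rho = 0.70 (permutation p = 0.00322, both unadjusted). Among the 11 numbers from 1 to 12 alone, Fosb passed (r = 0.83, permutation p = 0.00158, adjusted p = 0.0142; rho = 0.84, permutation p = 0.00533, adjusted p = 0.0480), and Egr1 gave r = 0.83 (permutation p = 0.0371, adjusted p = 0.111). Its highest value was 3P10 replicate 1 in both tissues, 53.6 CPM in white fat and 9.88 CPM in muscle. Fos gave r = 0.60 (permutation p = 0.0340, adjusted p = 0.153) and rho = 0.65 (permutation p = 0.0316, adjusted p = 0.0947).

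The genes most like the members within groups, by r with the mean of the standardised members, were led in 2 tissues by Btg2, which is in the EGR-family and growth-factor list. It came first in brown fat (r = 0.89, 17 libraries) and in muscle (r = 0.84, 15 libraries). Myg1, Mex3d, Rest and Esr1 followed in brown fat at r of 0.74 to 0.81, and Sox4, Klf2, Arrdc3 and Slc9a3r1 in muscle at 0.78 to 0.81. In white fat, Arhgef10l, Zfp516, Lpcat2 and Tnfaip2 were among the top 5, at r of 0.79 to 0.86. These are the top of 8706, 11653 and 13006 ranked genes in brown fat, muscle and white fat, and carry no test.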

How the data were processed

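RNA was sequenced from 47 libraries of 3 tissues, each with 3 groups. The deposited values are raw gene counts for 24391 genes per table, unnormalized as the authors deposited them. Per the submitters' processing notes, Trim Galore, STAR 2.6.0a, featureCounts 1.6.2, edgeR 3.22.3 and mm9 were used. The gene annotation, strand setting and use of the brown fat UMIs are not given in the sources used here, so overlapping genes could share reads. Brown fat libraries were made with a 3′ kit and the other libraries with a directional kit, per the labels' protocols. Counts were tested in R 4.3.3 with edgeR 4.0.16 (quasi-likelihood, TMM, filterByExpr with a minimum count of 10 and total of 15), 1 fit per tissue over its 3 groups, and 1 joint fit of white fat and muscle. P-values were adjusted by Benjamini-Hochberg over all genes tested and called under 0.05. DESeq2 1.42.0, other factors and filters, library-number terms, a replicate block and leaving out each library were alternatives. Permutation tests drew 100000 resamples. The fit was tested on simulated data: for IgG1 against NTB, changes of log2 size 1 were recovered in 82.1%, 63.0% and 67.7% of cases in brown fat (8711 genes), white fat (14402) and muscle (13283). The changed genes were drawn at random from all genes tested. The members' median spread within groups lay at percentiles 91.0, 84.0 and 65.2 of those genes, and recovery for the members alone was not measured. The members and gene lists were chosen with earlier results of these data known. All members are named, and of each list the called genes with the smallest adjusted p, up to 4 per comparison. The files use mm9 and the promoter sequences GRCm38.p6, so only the promoters' own coordinates are given. Of the genes most like the members in white fat, 1 is not reported here.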

Additional observations from a re-analysis of the deposited data

Results flagged for a closer look

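In 15 of 80 groups of libraries, the highest library lay farther from the others than Dixon's 95% limit allows, and in 0 groups the lowest did. Chance flags about 1 group in 20 only where values are normally distributed and groups are independent. CPM were used here without logs, and 1 library could be flagged for several genes. The number of flags therefore cannot be set against that rate. In white fat, IgG1 replicate 4 stood out for Nr4a1 (100.5 CPM, others 6.06 to 21.8), Nr4a2 (10.6 CPM, others 1.21 to 2.82) and Nr4a3 (15.8 CPM, others 1.25 to 4.99). Fos stood out in white fat IgG1 replicate 3 (7.22 CPM) and NTB replicate 4 (9.44 CPM), and Nr4a3 in NTB replicate 3 (5.30 CPM). Among white fat 3P10 libraries, Egr1 stood out in replicate 1 (53.6 CPM), Junb in replicate 2 (91.0 CPM) and Jun in replicate 3 (110.3 CPM). In muscle, Egr1 stood out in 3P10 replicate 1 (9.88 CPM), Nr4a2 in IgG1 replicate 3 (3.2199 CPM) and Jun in NTB replicate 3 (191 CPM, others 75.9 to 92.0). In brown fat, Nr4a1 stood out in IgG1 replicate 1 (148.8 CPM, others 6.33 to 29.9), and Fosb in 3P10 replicate 1 (0.721 CPM) and IgG1 replicate 5 (2.24 CPM), where the others had 0 counts. Those 2 Fosb values are 1 and 3 reads, no more than the floor of 3 counts, and any read stands out in a group otherwise at 0, which leaves 13 others. The Jun difference of IgG1 against NTB differed between tissues, by -1.48 on the log2 scale in white fat minus muscle.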

How the results depend on the processing

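Of the members' fold changes, 1777 kept direction and side of the threshold when 1 library was left out, 22 lost a call, 11 gained one and 65 changed sign; under the other settings these were 628, 2, 5 and 19. Most of these had no call to lose. With 1 library left out, brown fat calls held in 14 of 17 fits for Nr4a1, 17 of 17 for Nr4a2 and 10 of 17 for Jun. Muscle calls held in 9 of 15 for Jun and 11 of 15 for Junb, and the tissue difference of Jun in 28 of 30. No value that changed sign was a called one, and the cause was not tested. Counts of members called in IgG1 against NTB in brown fat were 1 with DESeq2, 2 without a filter and 1 with a filter of 1 CPM, in place of 0. In muscle they were 0 with the compared groups alone, in place of 2. In 3P10 against IgG1, 1 (Jun) was called in muscle with the library-number term and 1 (Jun) in the tissue difference with DESeq2, in place of 0. Across shared numbers, 1 member passed among 1 to 12. Same-numbered replicates did not pair in brown fat (correlations -0.137 to 0.0817, 0 of 16 over 0.1). In the other tissues correlations had both signs. They were -0.596 to 0.556 in muscle (9 of 15 over 0.1) and -0.208 to 0.467 in white fat (8 of 15 over 0.1). With the replicate block 1 member (Jun) was called in white fat in IgG1 against NTB, and Fosb in the tissue difference was -0.0014. Leaving out 1 library gave 1 to 3 calls in brown fat in 3P10 against IgG1, 0 to 1 in 3P10 against NTB and 0 to 2 in IgG1 against NTB, 0 to 1 in white fat in IgG1 against NTB and 0 to 2 in 3P10 against IgG1, 0 to 2 and 0 to 1 in muscle, and 0 to 1 in both tissue differences. Sign changes with libraries 1 to 12 alone were, in white fat, Ier2 -0.17 and Nr4a2 -0.29 in IgG1 against NTB, Ier2 0.18, Nr4a1 0.32 and Nr4a2 0.24 in 3P10 against IgG1, and Fosb 0.12 and Nr4a3 0.32 in 3P10 against NTB; in muscle in 3P10 against IgG1, Fos 0.076, Fosb 0.27, Ier2 0.029 and Nr4a2 -0.11. With the library-number term they were Fosb -0.033 and Nr4a3 0.013 in white fat, and Ier2 0.067 and Nr4a2 -0.15 in muscle. With the number as a block, tissue differences were Fosb -0.062, Ier2 0.0060 and Nr4a1 0.15. Ranges over left-out libraries that crossed 0 were, in brown fat, Junb -0.024 to 0.17 (3P10 against IgG1). In white fat they were Fosb -0.20 to 0.40, Ier2 -0.16 to 0.10 and Nr4a1 -1.22 to 0.42 in 3P10 against IgG1, Egr1 -0.17 to 0.46, Ier2 -0.089 to 0.21, Fosb -0.40 to 0.041 and Nr4a3 -0.77 to 0.24 in 3P10 against NTB, and Fosb -0.55 to 0.039, Ier2 -0.063 to 0.28 and Nr4a2 -0.17 to 0.9965 in IgG1 against NTB. In muscle they were Egr1 -0.20 to 0.20, Ier2 -0.19 to 0.021, Nr4a2 -0.32 to 0.66, Fos -0.57 to 0.14 and Fosb -0.48 to 0.12 in 3P10 against IgG1, Nr4a2 -0.14 to 0.60, Egr1 -0.44 to 0.024 and Ier2 -0.32 to 0.072 in 3P10 against NTB, and Nr4a2 -0.43 to 0.54 and Ier2 -0.26 to 0.12 in IgG1 against NTB. In the tissue difference they were Egr1 -0.0079 to 0.74, Junb -0.13 to 0.46, Fos -0.41 to 0.24 and Ier2 -0.036 to 0.42 in 3P10 against NTB, Ier2 -0.12 to 0.13, Nr4a1 -0.98 to 0.63 and Fosb -0.11 to 0.65 in 3P10 against IgG1, and Fosb -0.29 to 0.44, Nr4a1 -0.12 to 1.53, Nr4a2 -0.32 to 1.23 and Ier2 -0.015 to 0.41 in IgG1 against NTB. Depth limited Fos, Fosb, Ier2 and Nr4a3 in brown fat.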
